A study of Mus musculus with 16 samples.

Results

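The monocyte and macrophage identity genes are 10 of the 39328 genes in the deposited expression table. They comprise genes shared by the lineage (Csf1r, Adgre1, Cd68, Fcgr1, Lyz2 and Itgam), the recruited monocyte pair Ly6c2 and Ccr2, and the resident macrophage pair Cx3cr1 and Mrc1. The members were taken by symbol, and each symbol matched exactly 1 Ensembl gene. The 16 libraries, in 4 groups of 4, were made from total colon RNA. The mice were adults of the outbred ICR stock, with the genotype given as WT. CON_VD mice had been born vaginally and CON_CS mice by cesarean section, and both drank normal water. DSS_VD mice (vaginal birth) and DSS_CS mice (cesarean section) drank 3% dextran sulfate sodium (DSS), a polysaccharide that injures the colon epithelium, for 8 days. The study asked how birth mode bears on susceptibility to colitis. The labels do not say that each library is a separate animal, so the p-values measure the spread between these libraries, which may be partly technical.

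Blood monocytes that carry Ly6C and the chemokine receptor CCR2 enter the gut wall throughout life and mature there into macrophages. In the healthy colon this maturation ends in cells that hold the fractalkine receptor CX3CR1 and the mannose receptor CD206, the product of Mrc1. During colitis many more monocytes arrive, and cells at early steps of the series accumulate. The growth factor receptor CSF1R is needed for the survival of most of these cells, and the transcription factor PU.1 drives much of the myeloid program through sites built on a purine-rich core.

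A PU.1-type core, GAGGAA, was searched for on both strands in the 250 bases before each start in the RefSeq promoters of GRCm38.p6. Promoter sequence is shown for the members with a match. Of the 10 members, 8 had an entry. The core was found in 5 of these 8 (62.5%), against 25.85% of the 27025 genes with a promoter in the table. In the lines that follow, capitals mark the match nearest to the start, as GAGGAA or its reverse complement, and bases inside the annotated gene were left out.
Mrc1 (chr2:14229349-14229391, plus strand, match 35 bases before the start): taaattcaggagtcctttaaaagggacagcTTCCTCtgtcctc
Fcgr1 (chr3:96293989-96294054, minus strand, 55 bases before): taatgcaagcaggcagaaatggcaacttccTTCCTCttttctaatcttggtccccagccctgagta
Itgam (chr7:128062595-128062639, plus strand, 15 bases before): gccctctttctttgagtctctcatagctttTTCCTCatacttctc
Cd68 (chr11:69666360-69666420, minus strand, 225 bases before): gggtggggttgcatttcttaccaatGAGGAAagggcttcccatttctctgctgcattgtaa
Ly6c2 (chr15:75112044-75112109, minus strand, 108 bases before): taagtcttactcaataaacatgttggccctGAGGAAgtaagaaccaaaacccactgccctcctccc
These letters were not present in the searched window of Cx3cr1, Ccr2 or Lyz2. A match is a description of the sequence and not a binding site, and its part in the expression of these genes was not tested.

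All values are FPKM (fragment counts scaled by transcript length and by the size of the library), which the authors deposited without read counts, so the depth of each library is unknown. Summed FPKM lay between 280135 and 343423 per library, and libraries of the same group correlated at 0.97 to 0.99. The epithelial marker Epcam was present in every library (91.9 to 756 FPKM). DSS_VD replicate 2 was the lowest of the 8 DSS libraries in 9 of the 10 members, and its mean level of 10 epithelial markers, 8.83 as log2(FPKM + 1), was the highest of those 8. CON_VD replicate 1 was the highest of the 8 water libraries in 6 members. The prostate gene Pbsn, at most 0.526 FPKM in 13 libraries, was at 128 in DSS_CS replicate 3, 1355 in DSS_CS replicate 4 and 185 in CON_CS replicate 1. Member differences that moved by over 1.5 times without DSS_VD replicate 2 are given both ways.

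Lyz2, which encodes the lysozyme of macrophages and other myeloid cells, was by far the most abundant member per unit of length, with group means of FPKM between 88.1 in CON_CS and 945 in DSS_CS. Its range lay apart from that of the next gene in each of the 4 groups. In CON_VD the order of mean FPKM then ran from Csf1r (5.63) and Cd68 (5.37) through Ly6c2 (4.01), Mrc1 (3.22) and Adgre1 (3.18) to Cx3cr1 (1.27), Itgam (1.09), Fcgr1 (0.781) and Ccr2 (0.481). Between neighbours in that lower part of the order, only Adgre1 and Cx3cr1 had ranges that did not overlap. In DSS_CS the order after Lyz2 was Cd68 (59.6), Mrc1 (40.8), Csf1r (35.2), Itgam (28.8), Adgre1 (20.2), Ly6c2 (10.8), Fcgr1 (10.1), Ccr2 (10.0) and Cx3cr1 (3.32). There the neighbours Adgre1 and Ly6c2 did not overlap, nor did Ccr2 and Cx3cr1. Ly6c2, Cx3cr1 and Itgam were at ranks 4, 7 and 8 in CON_VD and at 7, 10 and 5 in DSS_CS, groups that differ in both birth mode and DSS. In CON_CS, the water group of the same birth mode, they were at ranks 6, 7 and 8. Ly6c2 thus already stood lower in cesarean water than in CON_VD. Most neighbours overlapped, so these ranks are approximate.

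**Figure D1:**
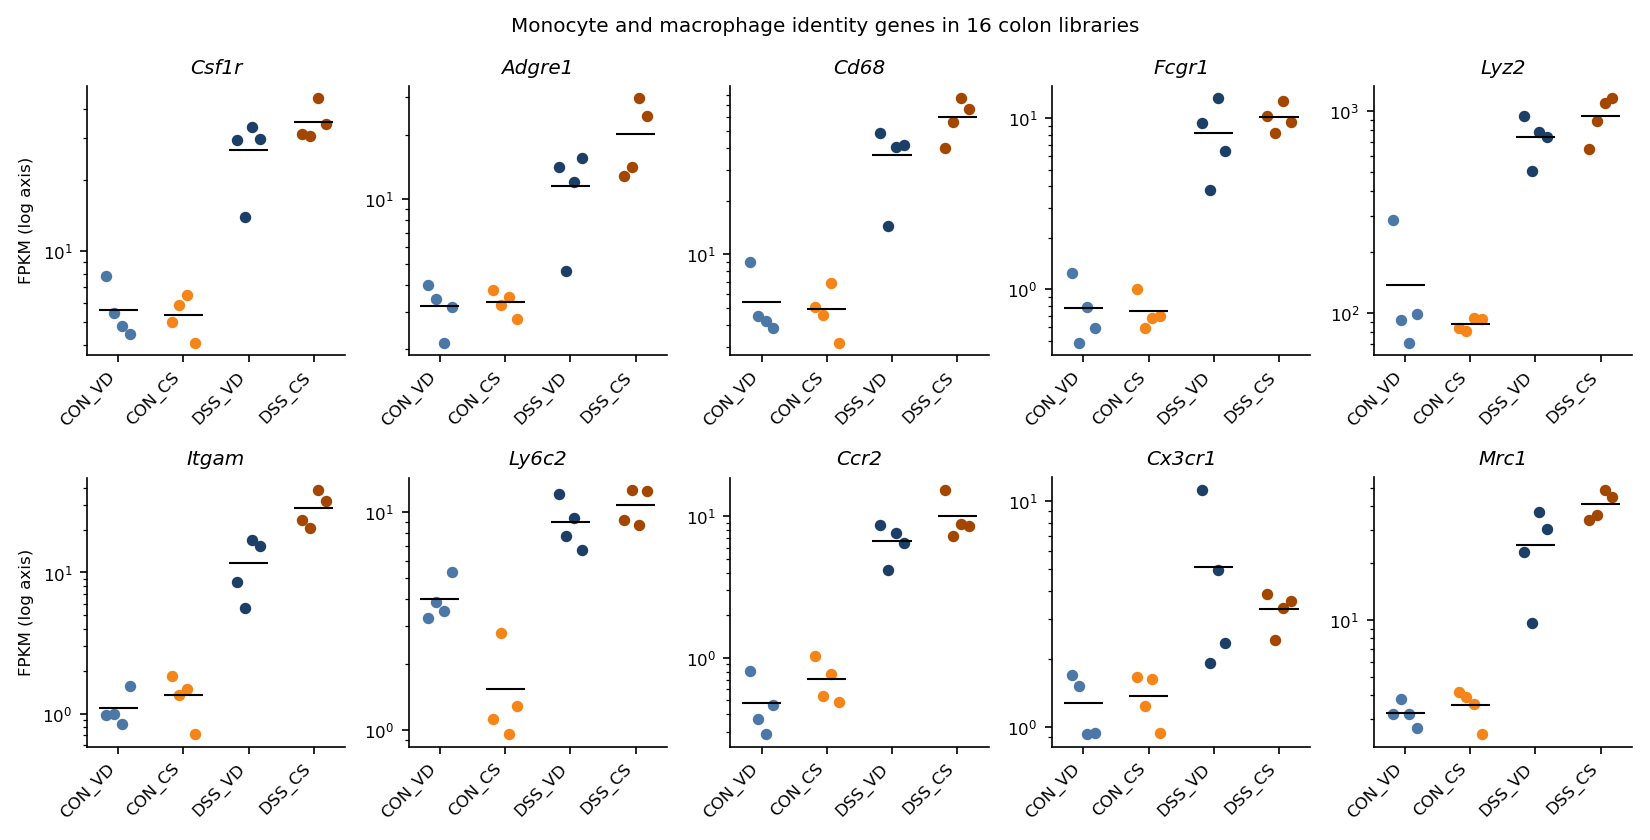
Each panel plots the FPKM of 1 gene (log axis) in the 16 libraries, with 4 points per group and a bar at the group mean. The points of both DSS groups lie above those of the water group of the same birth mode in every panel, and Ly6c2 in CON_VD (3.27 to 5.34) lies above CON_CS (0.956 to 2.79).

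DSS raised all 10 members in both birth modes. In vaginally born mice the fold of mean FPKM ran from 2.24 for Ly6c2 to 14.0 for Ccr2, and in cesarean-born mice from 2.43 for Cx3cr1 to 21.4 for Itgam. In each of the 10 genes the lowest DSS library lay above the highest water library of the same birth mode. Tests were made with limma on log2(FPKM + 1) over all genes at 1 FPKM or more in at least 4 of the 8 libraries, with Benjamini-Hochberg adjusted p under 0.05 as the threshold. In DSS_VD against CON_VD, 10 of 10 members passed as higher, and 9 of the 9 that could be tested without DSS_VD replicate 2. Of all 13933 genes tested, 24.0% passed as higher, 40.9% in either direction, and 38.6% had group ranges apart. In DSS_CS against CON_CS, 10 of 10 passed as higher, beside 34.4% higher, 60.3% in either direction and 57.0% with ranges apart among 14372 genes. The members' median log2 difference was 2.31 in DSS_VD and 2.66 in DSS_CS, against 0.06 over all genes tested in each. The 7 pan-leukocyte genes rose as well, with medians of 2.82 and 3.50, so the rise was not particular to the members. Against the leukocyte gene Ptprc, the mean FPKM ratio of Csf1r fell from 5.39 in CON_VD to 2.15 in DSS_VD. With cesarean birth it fell from 5.96 to 3.06. The mean ratio of Ccr2 to Ptprc rose from 0.420 in CON_VD to 0.546 in DSS_VD. With cesarean birth it was 0.759 in water and 0.904 in DSS, but 0.690 in DSS_CS without replicate 1. That of Itgam rose from 1.43 in CON_CS to 2.43 in DSS_CS. That of Fcgr1 was 0.831 in CON_CS and 0.880 in DSS_CS, with overlapping ranges (0.617 to 1.11 and 0.640 to 1.03). Ccr2 was under 1 FPKM in all 4 CON_VD libraries and so passed the filter there only through DSS. Fcgr1 and Itgam each had 1 CON_VD library at or above 1, and Cx3cr1 also had CON_VD libraries under 1. In CON_CS, Ccr2, Fcgr1, Itgam, Ly6c2 and Cx3cr1 each had at least 1 library under 1 FPKM. These genes thus met the filter of 4 libraries only with DSS libraries, which favours genes that are higher in DSS. In whole tissue, more cells of a type and more RNA per cell cannot be told apart.

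**Figure D2:**
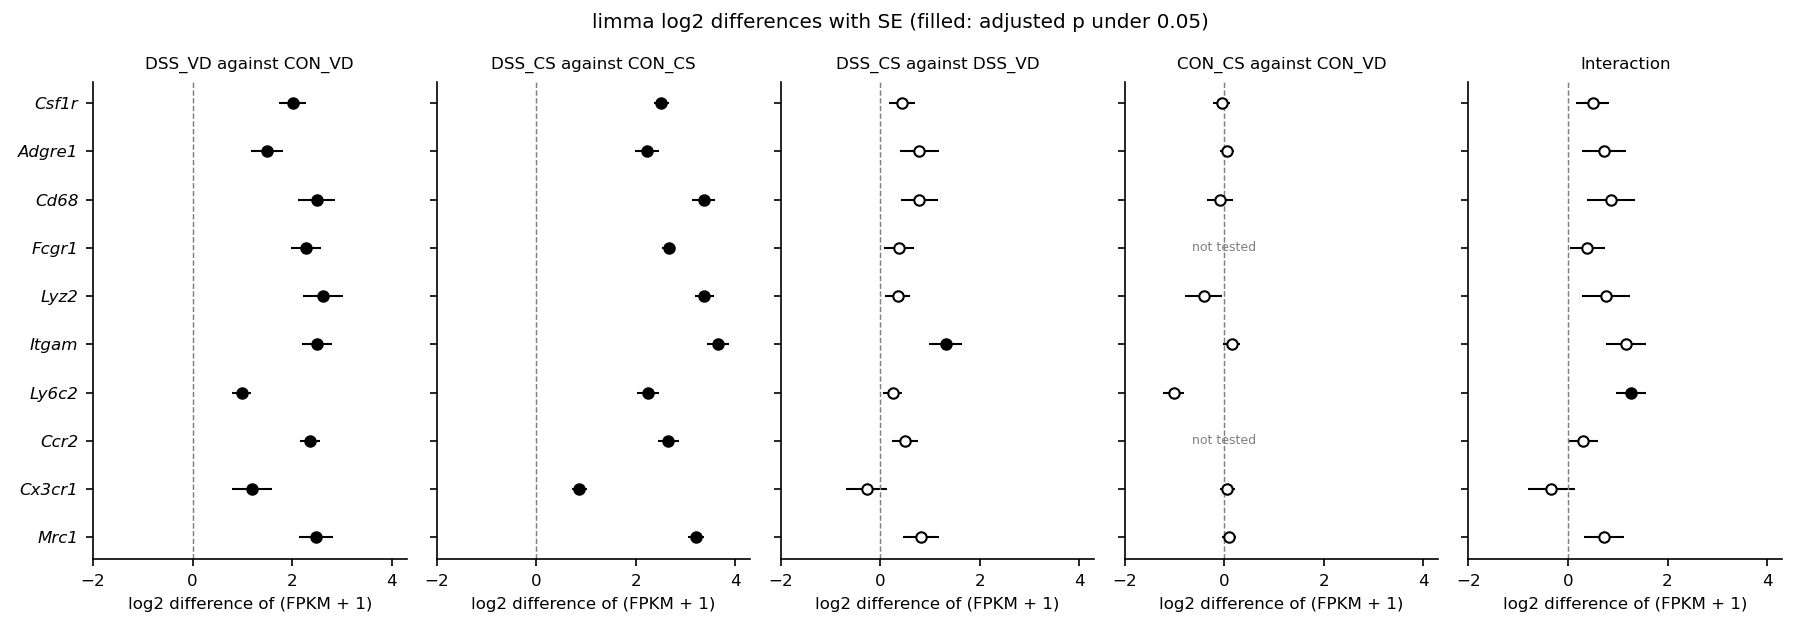
Points give the limma log2 difference of FPKM + 1 for each member in the 4 comparisons and the interaction, with bars of 1 SE, and filled points have an adjusted p under 0.05. All points are filled in both DSS comparisons, only Itgam is filled in DSS_CS against DSS_VD, and only Ly6c2 in the interaction.

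Csf1r, the receptor for CSF1 and IL-34 that macrophages depend on (chr18:61100598-61132149), was at 7.81, 5.43, 4.81 and 4.47 FPKM in CON_VD and 4.98, 5.88, 6.48 and 4.08 in CON_CS. It was at 29.5, 13.9, 33.6 and 29.6 in DSS_VD and 31.3, 30.6, 44.3 and 34.5 in DSS_CS. The water groups overlapped, and DSS_VD replicate 2 was the single low DSS library. The rise was 2.02 ± 0.27 (limma log2 ± SE, adjusted p = 4.19e-04) with vaginal birth and 2.51 ± 0.15 (adjusted p = 2.36e-06) with cesarean birth. Csf1r differed between the DSS groups by 0.44 ± 0.26 (limma adjusted p = 0.284) and did not pass, and without DSS_VD replicate 2 the difference was 0.17.

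Adgre1, which encodes the macrophage surface protein F4/80 (chr17:57358691-57483527), was between 2.15 and 3.99 FPKM in the 8 water libraries. In DSS_VD it was at 14.1, 4.62, 12.04 and 15.5 FPKM and in DSS_CS at 12.8, 14.2, 29.5 and 24.4. The 2 highest DSS_CS libraries are those with Pbsn, and the other 2 lay within the DSS_VD range. The DSS_CS against DSS_VD difference was 0.79 ± 0.39 (limma log2 ± SE, adjusted p = 0.195) over all 8 libraries, 0.44 without DSS_VD replicate 2 and 0.31 without those 2, the lowest value over the alternatives. Both DSS responses passed, at 1.497 ± 0.32 (adjusted p = 0.00509) and 2.22 ± 0.25 (adjusted p = 6.87e-05).

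Cd68, a lysosomal glycoprotein of phagocytes (chr11:69664213-69666153), was at 8.997, 4.46, 4.18 and 3.83 FPKM in CON_VD and 3.16 to 6.86 in CON_CS. It reached 48.8, 14.5, 40.7 and 41.6 in DSS_VD and 39.8, 56.0, 76.6 and 66.2 in DSS_CS. Fcgr1, the high-affinity IgG receptor CD64 used to mark gut macrophages (chr3:96282909-96293969), was between 0.487 and 1.25 FPKM in water. It was at 9.37, 3.78, 13.05 and 6.46 in DSS_VD and 10.2, 8.20, 12.5 and 9.50 in DSS_CS. Both genes were high in every DSS library, and the 2 DSS groups overlapped in each. By limma the difference between DSS groups was 0.79 ± 0.37 (adjusted p = 0.180) for Cd68 and 0.37 ± 0.30 (adjusted p = 0.434) for Fcgr1. Without DSS_VD replicate 2 these differences were 0.41 and 0.098.

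Lyz2 (chr10:117277331-117282321) was at 289, 92.3, 70.9 and 98.4 FPKM in CON_VD, 81.2 to 94.4 in CON_CS, 947, 504, 782 and 738 in DSS_VD, and 644, 892, 1091 and 1154 in DSS_CS. One water library, CON_VD replicate 1, stood far above the other 7. Its near copy Lyz1 (chr10:117287797-117292868), the lysozyme of Paneth cells, was at 17.7 FPKM in that library and 1.25 to 3.65 in the other 7. Lyz1 was at 8.93 to 33.9 FPKM in DSS_VD and 15.6 to 23.5 in DSS_CS. Of the 50-base words in Lyz2 transcripts, 15.4% also occur in Lyz1, so the split of reads between them is uncertain. The mean ratio of Lyz1 to Lyz2 was 0.0396 in CON_VD and between 0.0217 and 0.0229 in the other groups. Of the 3 Paneth defensins listed, Defa17 and Defa30 were at 0 in all 16 libraries and Defa24 in all but DSS_CS replicate 2 (0.110 FPKM). The Paneth protease gene Mmp7 was at most 0.728 FPKM in 13 libraries, and at 10.3 in CON_CS replicate 1, 5.03 in DSS_CS replicate 3 and 36.6 in DSS_CS replicate 4, the 3 libraries with Pbsn. Lyz2 differed between the DSS groups by 0.35 ± 0.26 (limma log2 ± SE, adjusted p = 0.389), and by 0.17 without DSS_VD replicate 2.

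Itgam was the only member that passed between the 2 DSS groups. It encodes CD11b, the integrin alpha chain of monocytes, macrophages and neutrophils (chr7:128062640-128118491). It was at 0.983, 0.990, 0.838 and 1.56 FPKM in CON_VD and 1.84, 1.35, 1.49 and 0.712 in CON_CS. In DSS_VD it was at 8.55, 5.58, 17.0 and 15.4 FPKM and in DSS_CS at 23.7, 20.7, 38.6 and 32.3. Every DSS_CS library thus exceeded every DSS_VD library, and the fold of mean FPKM was 2.48. The limma difference was 1.31 ± 0.34 (log2 ± SE, adjusted p = 0.0415, higher in 4 of 4 DSS_CS libraries). This made 1 of 10 members called and 1 of 10 with ranges apart, beside 13.4% called and 22.5% with ranges apart among 14313 genes.

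The Itgam call sat close to the threshold. It was lost without DSS_VD replicate 1, 2 or 4 and without DSS_CS replicate 2, 3 or 4, with limma adjusted p from 0.0548 to 0.108. It was also lost without the filter on low values (limma adjusted p = 0.108). Without both DSS_CS libraries that held Pbsn the difference was 0.99 ± 0.42 (limma adjusted p = 0.223). Over all alternatives the difference stayed between 0.99 and 1.52, and the adjusted p lay between 0.00442 and 0.223.

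Neutrophil markers differed between the same groups. Of 13 neutrophil genes, 12 were tested, 5 passed as higher in DSS_CS than in DSS_VD and 2 as lower, with a median log2 difference of 1.59. Their summed FPKM was 567 to 1060 in DSS_VD and 838 to 1462 in DSS_CS, against 73.9 to 180 in CON_VD and 89.9 to 134 in CON_CS. In water nearly all of that sum was Ly6g (73.2 to 178 FPKM), Ngp was at 0 in all 8 libraries and Camp in the CON_VD libraries, and no gene of the list was at 0 throughout a DSS group. The neutrophil chemokine receptor Cxcr2 was at most 0.0373 FPKM in water, 2.12 to 9.11 in DSS_VD and 13.6 to 24.7 in DSS_CS. The genes that were higher in DSS_CS were Cxcr2, Csf3r, S100a8, S100a9 and Mmp9. The lower ones were Ly6g, whose protein is a surface marker of mouse neutrophils, at 231 to 598 FPKM in DSS_VD and 58.1 to 154 in DSS_CS (-1.94 ± 0.35, limma adjusted p = 0.0313), and the granule gene Ltf, at 15.0 to 46.0 and 1.03 to 6.66 FPKM (-2.91 ± 0.46). Since Ly6g was abundant in water where Cxcr2 was nearly absent, its RNA cannot be read here as a measure of neutrophils alone. The pan-leukocyte gene Ptprc differed by only -0.04 between the DSS groups (7.81 to 15.7 FPKM in DSS_VD and 8.10 to 14.9 in DSS_CS). The part of neutrophils in the Itgam difference was not tested. Of the 50-base words in Itgam transcripts, 66.3% also occur in the overlapping gene model Gm49368, whose FPKM was 0 to 0.439 in water and 0.0695 to 8.05 in DSS, with the highest value in DSS_CS replicate 3. The value of Itgam is therefore uncertain by the reads assigned to that model.

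Ly6c2 encodes the Ly6C antigen of newly recruited monocytes (chr15:75108158-75111970), and its response to DSS differed with birth mode. In water it was at 3.27, 3.88, 3.53 and 5.34 FPKM in CON_VD and 1.12, 2.79, 0.956 and 1.29 in CON_CS, so that every vaginal-birth library lay above every cesarean library. In DSS the groups overlapped, at 12.1, 7.77, 9.40 and 6.72 in DSS_VD and 9.20, 12.7, 8.71 and 12.6 in DSS_CS. The rise was 0.98 ± 0.19 (limma log2 ± SE, adjusted p = 0.00255) with vaginal birth and 2.25 ± 0.22 (adjusted p = 3.04e-05) with cesarean birth. The interaction, which is the cesarean response minus the vaginal response, was 1.26 ± 0.30 (limma adjusted p = 0.0186 over 15233 genes), and Ly6c2 was the 1 member of 10 that passed it, beside 13.2% of all genes. It was lost in 1 alternative, with array weights, at 0.95 (limma adjusted p = 0.0639).

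The difference of Ly6c2 between the water groups, -1.01 ± 0.21 (limma log2 ± SE), had an adjusted p of 0.0837 and was not called. The exact two-sided permutation p was 0.0286, the smallest that 4 against 4 libraries allow. Without CON_CS replicate 2, the highest cesarean library, the difference was -1.22 (limma adjusted p = 0.0171). In this comparison 8 members were tested and 0 passed by limma, with 1 (Ly6c2) at an unadjusted p under 0.05, beside 0.407% of 13275 genes called. One of the 10 members had ranges apart, beside 10.7% of all genes. The other members tested lay between -0.41 (Lyz2) and 0.15 (Itgam), and the median over the 8 was 0.01, against 0.03 over all genes.

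The near copy Ly6c1 (chr15:75044018-75048830), which is also expressed in endothelium, went the other way. It was at 12.7 to 26.9 FPKM in CON_VD, 16.7 to 31.8 in CON_CS, 112 to 231 in DSS_VD and 62.2 to 96.3 in DSS_CS. Every DSS_CS library was below every DSS_VD library, and the limma difference was -0.95 ± 0.23 (adjusted p = 0.0378). Its interaction was -1.33 ± 0.37 (limma adjusted p = 0.0305), opposite in sign to that of Ly6c2. The ratio of Ly6c1 to Ly6c2 FPKM averaged 4.59 in CON_VD, 17.3 in CON_CS, 19.1 in DSS_VD and 8.16 in DSS_CS. Since 13.9% of the 50-base words in Ly6c2 transcripts also occur in Ly6c1, and Ly6c1 was the more abundant in every library, the Ly6c2 values carry an uncertainty from the assignment of shared reads. Its part in the birth-mode difference was not tested.

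Ccr2, the receptor for CCL2 and CCL7 by which monocytes leave the marrow and enter inflamed tissue (chr9:124101950-124113557), was scarcely detected in water. It was at 0.801, 0.367, 0.288 and 0.467 FPKM in CON_VD and 1.02, 0.538, 0.766 and 0.485 in CON_CS. DSS brought it to 8.59, 4.16, 7.62 and 6.49 in DSS_VD and 15.4, 7.28, 8.86 and 8.56 in DSS_CS. One DSS_CS library, replicate 1, was well above the rest. The rise was 2.36 ± 0.20 (limma log2 ± SE, adjusted p = 5.61e-05) and 2.65 ± 0.21 (adjusted p = 8.67e-06), or 14.0-fold and 14.3-fold in mean FPKM. Unlike Ly6c2, Ccr2 did not pass the interaction test, at 0.30 ± 0.30 (limma adjusted p = 0.547), and the difference between those 2 interactions was not tested. Ccr2 differed between the DSS groups by 0.50 ± 0.25 (limma adjusted p = 0.207), and by 0.32 without DSS_VD replicate 2.

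Cx3cr1, the fractalkine receptor (chr9:119901616-120069879), had the smallest rise of the members in cesarean-born mice. It was at 1.71, 1.52, 0.929 and 0.937 FPKM in CON_VD and 1.67, 1.24, 1.62 and 0.942 in CON_CS. It was at 11.2, 1.92, 4.93 and 2.35 in DSS_VD and 3.87, 2.44, 3.37 and 3.59 in DSS_CS. The spread in DSS_VD came mainly from replicate 1, which was above all other libraries. The rise was 1.20 ± 0.40 (limma log2 ± SE, adjusted p = 0.0403) with vaginal birth and 0.87 ± 0.14 (adjusted p = 7.69e-04) with cesarean birth. Without DSS_VD replicate 1 the vaginal-birth rise was 0.78 (limma adjusted p = 0.0473), and without DSS_VD replicate 3 or any 1 CON_VD library the adjusted p was 0.0561 to 0.0949. Between the DSS groups the difference was -0.27 ± 0.41 (limma adjusted p = 0.698), and it became 0.15 without DSS_VD replicate 1 and -0.54 without replicate 2.

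Mrc1, the mannose receptor CD206 of tissue macrophages (chr2:14229392-14332057), rose more than its partner. It was between 2.49 and 4.14 FPKM in the 8 water libraries, with the groups overlapping. It was at 22.8, 9.65, 37.4 and 30.1 in DSS_VD and 33.7, 36.1, 48.9 and 44.7 in DSS_CS, where only DSS_VD replicate 3 reached into the cesarean range. The rise was 2.48 ± 0.34 (limma log2 ± SE, adjusted p = 5.08e-04) with vaginal birth and 3.21 ± 0.16 (adjusted p = 8.75e-07) with cesarean birth, or 7.76-fold and 11.6-fold in mean FPKM. Between the DSS groups the difference was 0.82 ± 0.36 (limma adjusted p = 0.156), and 0.44 without DSS_VD replicate 2.

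The recruited pair was set against the resident pair as the mean log2(FPKM + 1) of Ly6c2 and Ccr2 minus that of Cx3cr1 and Mrc1, as a description with no test. This difference averaged -0.19 ± 0.27 (SD, n = 4) in CON_VD, -0.67 ± 0.23 in CON_CS, -0.36 ± 0.43 in DSS_VD and -0.26 ± 0.27 in DSS_CS. The 4 CON_VD libraries were at -0.28, -0.44, -0.24 and 0.19, and the 4 CON_CS libraries at -0.84, -0.46, -0.90 and -0.50. All CON_CS values were below all CON_VD values, as for Ly6c2 alone, but the nearest were at -0.459 and -0.435. With Ccr2 as the only recruited gene the water difference was above 0, at 0.14 against Cx3cr1 and 0.11 against Mrc1. The DSS_VD libraries were at -0.61, 0.27, -0.67 and -0.42 and the DSS_CS libraries at -0.01, -0.09, -0.59 and -0.35, with wide overlap. The balance differed between the DSS groups by 0.10, and by 0.31 without DSS_VD replicate 2. It changed by -0.17 (-0.38 without DSS_VD replicate 2) from CON_VD to DSS_VD and by 0.42 from CON_CS to DSS_CS. With a pseudocount of 0.1 those changes were 0.16 and 0.87, so the sign of the first depends on the pseudocount.

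Neither pair moved as a unit. Within the recruited pair the mean ratio of Ccr2 to Ly6c2 FPKM was 0.127 in CON_VD, 0.570 in CON_CS, 0.756 in DSS_VD and 0.985 in DSS_CS. That DSS_CS mean was 0.757 without replicate 1, whose ratio was 1.67. Within the resident pair the mean ratio of Cx3cr1 to Mrc1 was 0.394 in CON_VD, 0.387 in CON_CS, 0.225 in DSS_VD and 0.0829 in DSS_CS. The DSS_VD mean was 0.136 without replicate 1, whose ratio was 0.492. The sign of the balance between the DSS groups depended on which resident gene was used. DSS_CS exceeded DSS_VD by 0.52 for Ly6c2 and by 0.77 for Ccr2 when Cx3cr1 alone was subtracted, and the values were -0.57 and -0.32 when Mrc1 alone was subtracted.

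**Figure D3:**
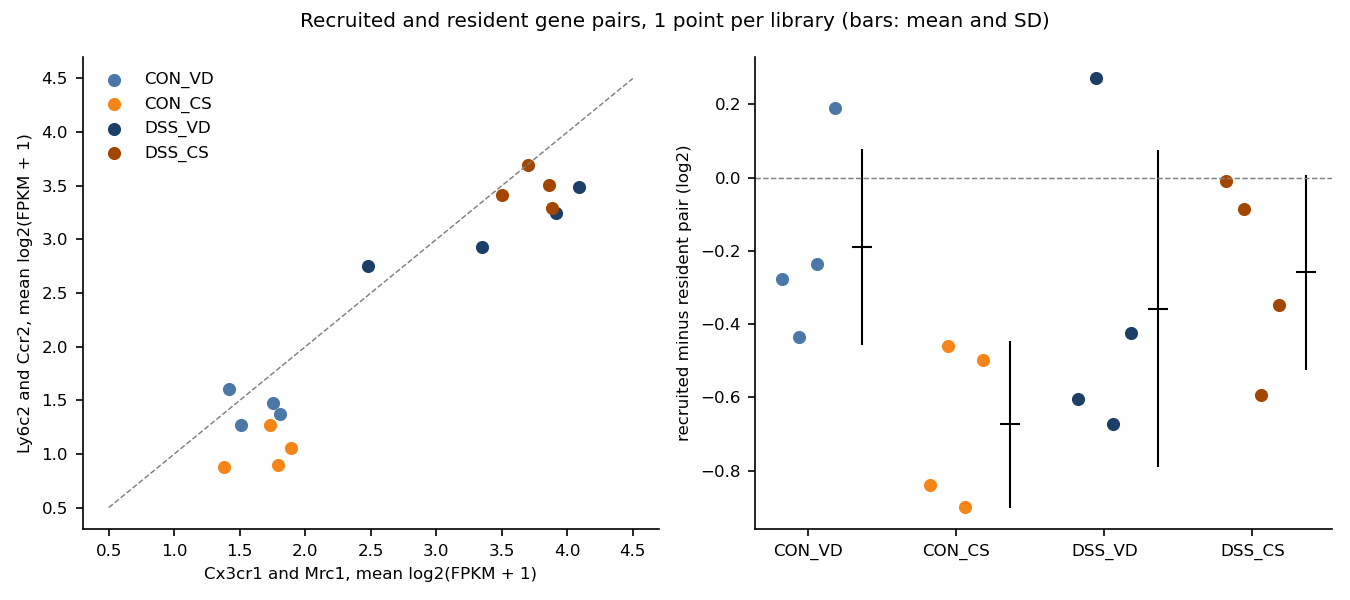
The left panel plots the mean log2(FPKM + 1) of Ly6c2 and Ccr2 against that of Cx3cr1 and Mrc1 in each library, with a dashed line of equality, and the right panel plots their difference with the group mean and SD. DSS moves both pairs up together, and the differences of the DSS groups (-0.67 to 0.27 and -0.59 to -0.01) overlap.

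Ratios to Csf1r within a library show which members changed more than the shared receptor. Itgam was at 0.208 ± 0.097 of Csf1r (mean ± SD of FPKM ratios, n = 4) in CON_VD, 0.251 ± 0.083 in CON_CS, 0.429 ± 0.107 in DSS_VD and 0.810 ± 0.117 in DSS_CS. The DSS_CS ratios of Itgam (0.676 to 0.938) lay above the DSS_VD ratios (0.290 to 0.519). For Mrc1 the mean ratio was 0.594 in CON_VD, 0.665 in CON_CS, 0.899 in DSS_VD and 1.16 in DSS_CS. For Cx3cr1 it was 0.226, 0.257, 0.186 and 0.0959 in the same order, with 0.121 in DSS_VD without replicate 1. The DSS_CS ratios of Cx3cr1 (0.0760 to 0.124) were all below those of the 8 water libraries (0.193 to 0.335). For Ly6c2 the mean ratio was 0.766 in CON_VD and between 0.291 and 0.369 in the other groups, and for Ccr2 it was 0.0837 in CON_VD, 0.133 in CON_CS, 0.259 in DSS_VD and 0.294 in DSS_CS. Against Csf1r, the group means of Itgam, Ccr2 and Mrc1 were thus higher in DSS than in water, and that of Cx3cr1 was lowest in DSS_CS.

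**Figure D4:**
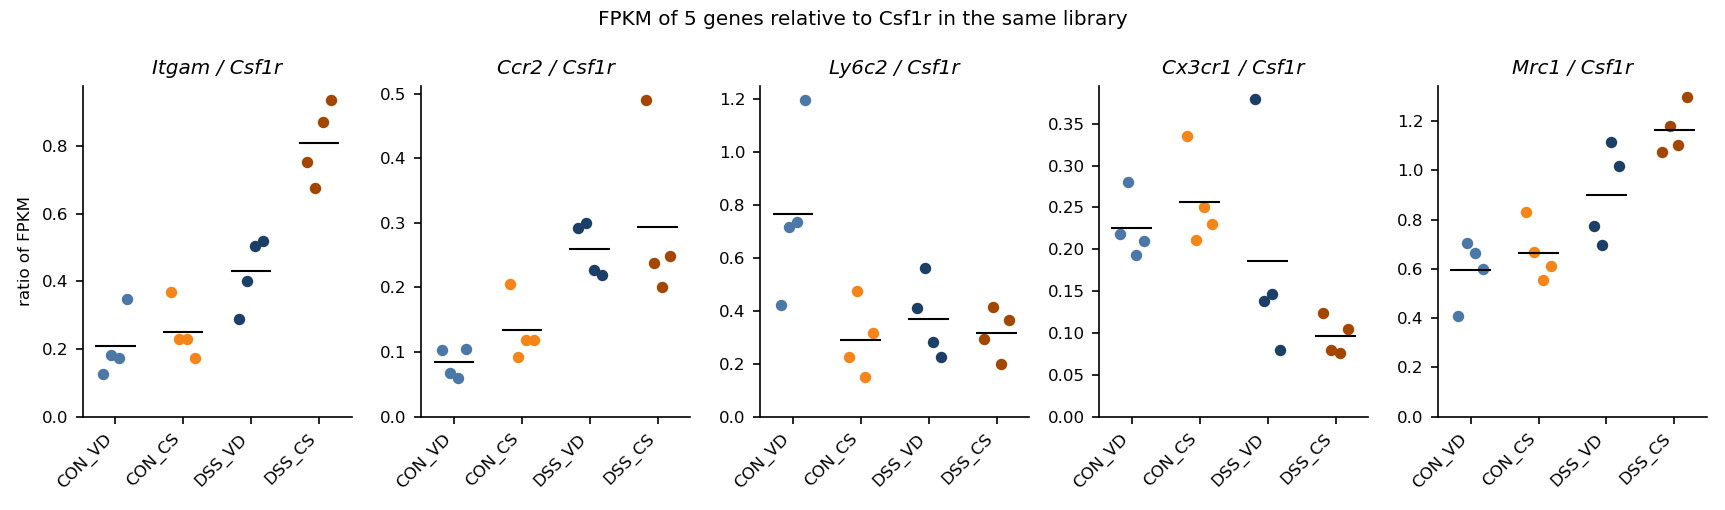
Each panel plots the ratio of the FPKM of 1 gene to that of Csf1r in the same library, with 4 points per group and a bar at the mean. The Itgam ratio in DSS_CS (0.676 to 0.938) lies above all other libraries, and the Cx3cr1 ratio in DSS_CS (0.0760 to 0.124) lies below all water libraries.

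Genes related to the members were read from lists. In the list of monocyte and early macrophage genes, 20 of 21 tested rose with DSS and 1 fell, in each birth mode. Of these 21, 11 were under 1 FPKM in every CON_VD library and 13 in every CON_CS library, so they entered the test only through the DSS group and these counts are no measure of the list. Of all genes tested, 24.0% rose in DSS_VD and 34.4% in DSS_CS, and 40.9% and 60.3% passed in either direction, which is the background for all lists here. Clec4d, a lectin receptor of monocytes and neutrophils, rose by 3.31 ± 0.28 (limma log2 ± SE, adjusted p = 5.62e-05) in DSS_VD and 4.83 ± 0.20 (adjusted p = 4.82e-07) in DSS_CS. The activating receptor Trem1 and the chemokine receptor Ccr1 rose by 2.08 ± 0.16 and 2.96 ± 0.26 in DSS_VD, and Ifitm6 by 2.64 ± 0.22. In DSS_CS the formyl peptide receptors Fpr1 and Fpr2 rose by 3.65 ± 0.19 and 3.95 ± 0.16, and Sirpb1c by 2.10 ± 0.09. The gene that fell was Mgst1, a glutathione transferase, in DSS_VD (-0.69 ± 0.21) and Plac8 in DSS_CS (-0.64 ± 0.19). Both were abundant in water, with a mean FPKM of 51.9 for Mgst1 in CON_VD and 472 for Plac8 in CON_CS. Their cell source was not tested.

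In the resident macrophage list, 15 of 20 tested rose, 2 fell and 3 did not pass in DSS_VD, and 20 of 23 rose, 1 fell and 2 did not pass in DSS_CS, where 1 of the 20 and 6 of the 23 were under 1 FPKM in every water library. The complement gene C1qc rose by 2.30 ± 0.32 (limma log2 ± SE) in DSS_VD and 2.89 ± 0.13 in DSS_CS. Apoe, Lyve1 and Cd4 rose by 2.79 ± 0.35, 2.07 ± 0.28 and 2.17 ± 0.23 in DSS_VD. In that comparison 11 of 12 lymphocyte genes and 10 of 10 endothelial genes rose as well, with medians of 1.93 and 1.18. The cell source of the rises in this list was not tested. In DSS_CS the transglutaminase gene F13a1 rose by 2.96 ± 0.10, C1qa by 3.09 ± 0.13 and the folate receptor Folr2 by 2.25 ± 0.10. Gas6, a ligand of the receptor kinase MERTK, fell by 0.98 on the log2 scale in DSS_VD. It averaged 149 FPKM in CON_VD, and its cell source was not tested. Of the genes shared by mononuclear phagocytes, 26 of 27 rose in DSS_VD and 27 of 28 in DSS_CS, and 2 and 6 of these were under 1 FPKM in every water library. Tyrobp, the signalling adaptor, rose by 3.86 ± 0.10 and Spi1, which encodes PU.1, by 3.04 ± 0.10 in DSS_CS. Csf2rb and Lgmn rose by 3.10 ± 0.24 and 2.48 ± 0.22 in DSS_VD.

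The ligands of the members' receptors were also higher in DSS. Of 9 ligand and growth factor genes tested, 8 rose in DSS_VD and 1 did not pass, while in DSS_CS 8 rose and 1 fell. Ccl2 and Ccl7, the ligands of CCR2, rose by 3.51 ± 0.33 and 3.68 ± 0.37 (limma log2 ± SE) in DSS_VD and by 4.71 ± 0.30 and 4.74 ± 0.25 in DSS_CS. Icam1, a ligand of the CD11b integrin, rose by 2.50 ± 0.26 and 3.30 ± 0.16. Tgfb1 rose by 1.88 ± 0.22 and 2.40 ± 0.15. Cx3cl1, the ligand of CX3CR1, was the gene that fell in DSS_CS, by 0.89 on the log2 scale (limma adjusted p = 0.00827). It was at 6.85, 3.24, 2.35 and 3.18 FPKM in DSS_CS against 7.35 to 7.87 in CON_CS, and at 4.70 to 11.7 in DSS_VD.

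Between the DSS groups, 9 of 21 monocyte and early macrophage genes were higher in DSS_CS, 1 was lower and 11 did not pass, with a median of 0.95, beside 13.4% of all genes called. The recruited monocyte pair Ly6c2 and Ccr2 did not pass. Clec4d of this list is also a receptor of neutrophils, and the cell source of the other genes in the list was not tested. The neutrophil list had a median of 1.59, with 5 of 12 genes higher and 2 lower. The part of neutrophils in these counts was not tested. Fpr1 was higher by 1.66 ± 0.30, Clec4d by 1.79 ± 0.33, the secreted phosphoprotein Spp1 by 1.68 ± 0.32 and F10 by 1.29 ± 0.25 (limma log2 ± SE, adjusted p = 0.0313 for each), while Plac8 was lower by -1.52 ± 0.27 (adjusted p = 0.0313). Plac8 averaged 452 FPKM in CON_VD and 472 in CON_CS, where Ccr2 averaged 0.481 and 0.703. The cell source of Plac8 in this tissue was not tested. Of 23 resident macrophage genes 7 were higher and 16 did not pass, with a median of 0.72. F13a1 was higher by 1.44 ± 0.24, Folr2 by 1.17 ± 0.29, Vsig4 by 0.80 ± 0.19 and Cd209g by 0.79 ± 0.16. Of 28 shared phagocyte genes 2 were higher (Cebpb by 0.90 ± 0.20 and Lilrb4a by 1.19 ± 0.33) and 26 did not pass, a share below that 13.4%. Of the 9 ligand genes 0 passed by limma, and 4 had an unadjusted p under 0.05. The members' own median was 0.47, with 9 of 10 above 0, against 0.06 over all genes. Without DSS_VD replicate 2 each of those 9 differences was smaller, and that of Cx3cr1 lay further below 0. These counts rest on single libraries, since the calls over all genes went from 1923 to 6 without both libraries that held Pbsn, to 0 without DSS_VD replicate 1 and to 1 without DSS_CS replicate 3.

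In the interaction, 8 of 22 monocyte and early macrophage genes had a larger DSS response with cesarean birth and 1 a smaller one, beside 13.2% of all genes called. Of these, Spp1, Fpr1, F10, Trem1, Clec4e, Clec4d and Fpr2 averaged at most 0.364 FPKM in either water group. They entered the test only through DSS libraries, so their interaction largely restates the difference between the DSS groups, and the count is no measure of the list. The figures were 4 and 0 of 23 for resident macrophage genes, 1 and 0 of 28 for shared phagocyte genes, and 0 of 9 for ligands by limma, where 4 had an unadjusted p under 0.05. The median over the members was 0.72, against 0.04 over all genes. Member values depended on single libraries: the Mrc1 interaction, 0.72 in all libraries, ran from 0.35 to 0.96 when 1 library was left out. In water, 1 gene of the monocyte list (Mgst1, -0.99 ± 0.16, limma adjusted p = 0.0384) was lower in CON_CS. It averaged 51.9 FPKM in CON_VD and 25.1 in CON_CS, and its cell source was not tested. In the same comparison 0 of 17 resident, 0 of 21 phagocyte and 0 of 6 ligand genes passed by limma, with 0, 2 and 0 at an unadjusted p under 0.05.

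The tissue around these cells differed between the same groups. The mean log2(FPKM + 1) of 10 epithelial genes was 8.62 to 8.83 in CON_VD and 8.70 to 8.80 in CON_CS, 7.75 to 8.83 in DSS_VD and 6.17 to 7.74 in DSS_CS. Between the DSS groups 6 of the 10 epithelial genes were lower in DSS_CS, with a median of -1.34. Summed FPKM of 9 fibroblast genes was 463 to 995 in DSS_VD and 1239 to 1661 in DSS_CS. Summed FPKM of 5 erythrocyte genes was 241 to 975 in DSS_VD and 903 to 9731 in DSS_CS. No epithelial, fibroblast or erythrocyte gene was at 0 throughout a group. Lymphocyte genes (12 tested), dendritic cell genes (8), eosinophil and mast cell genes (8), pan-leukocyte genes (7) and smooth muscle genes (10) had 0 calls by limma between the DSS groups. In the same order 0, 2, 1, 0 and 7 had an unadjusted p under 0.05, and their medians were -0.30, -0.02, -0.0036, 0.22 and 0.65. Of 10 enteric neuron and glia genes 3 were higher in DSS_CS, of 10 endothelial genes 1 was higher and 1 (Ly6c1) lower, of 5 peritoneal macrophage genes 1 (Prg4) was higher, and of 3 adipose genes tested 1 was higher. The part of tissue makeup in the members' differences was not tested.

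Across the 16 libraries the genes with the pattern most like Csf1r, among 15208 genes, were Myo1f, Mpeg1, Igsf6, Fcgr2b and Tlr13, each at a Pearson r of 0.99 on log2(FPKM + 1). For Mrc1 they were Sirpb1c, Tlr13, Abca1, Slc43a2 and Igsf6, also at 0.99. For Ly6c2 they were Cdc42se1, Golga7, Tomm34, Pqlc2 and Sst, at 0.93 to 0.94, and none of these 5 was among the genes most like Csf1r or Mrc1. These values describe libraries that share the DSS step, which separates 8 from 8. Within the 8 DSS libraries the 45 pairs of members correlated at -0.11 to 0.96 with a median of 0.65, and within the 8 water libraries at -0.60 to 0.94 with a median of 0.44.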

How the data were processed

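Colon RNA of 16 libraries, 4 in each of 4 groups, was analysed. The authors deposited FPKM per Ensembl gene. Per the submitters' processing notes the steps involved cutadapt, FastQC and the GRCm38 genome. For versions, aligner, quantifier, annotation and strand, the sources used here give nothing. Depth is unknown, so no counting interval could be given. Symbols were found for 39181 of 39328 genes (147 unmatched).

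From the deposited FPKM, log2(FPKM + 1) was tested with limma 3.58.1 in R 4.3.3 (trended prior) on genes with FPKM of at least 1 in at least 4 fitted libraries. Each comparison used its own 8 libraries and the interaction all 16, with Benjamini-Hochberg adjustment over all genes and a threshold of 0.05. Comparisons that share libraries are not independent. The exact permutation test was two-sided. The procedure was tested on simulated data. The tables were handled in python 3.11.15 with pandas 2.3.3 and drawn with matplotlib 3.10.9. Positions are those of GENCODE for GRCm38, and shared 50-base words were counted in its transcripts.

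All 10 members were named in every comparison. From the monocyte, resident macrophage, phagocyte and ligand lists, up to 4 called genes per direction with the smallest p were eligible (1 such gene is not reported here), and Lyz1 and Ly6c1 were named as near copies. For likeness the 5 genes with the highest Pearson r were named. Interaction calls were all named. Marker genes of other cell types were named where they define the type, and the ligand Cx3cl1 values in all groups, the neutrophil and Paneth marker genes and the Itgam overlap with Gm49368 were added after values were seen. The members and lists were chosen with earlier results of these data known. Alternatives covered the pseudocount, the filter, scaling, the trend, array weights, a replicate block, a single fit of all groups and leaving out libraries. Leaving out both DSS_CS libraries with prostate genes was chosen after seeing the data.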

Additional observations from a re-analysis of the deposited data

Results flagged for a closer look

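In CON_VD, 1 library stood apart in 2 genes. Cd68 was at 8.997 FPKM in replicate 1 and 3.83 to 4.46 in the other 3, a gap of 0.877 of the group's range. Lyz2 was at 289 FPKM in that library and 70.9 to 98.4 in the others, a gap of 0.874 of the range. Both exceed Dixon's 95% critical value for 4 samples. Of 44 groups of values tested 2 exceeded it, and chance gives about 1 in 20.

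The DSS response differed between birth modes by the limma interaction test in 15 genes of the members and their companion lists, each value being the cesarean response minus the vaginal response in log2. Among the members this was Ly6c2, at 1.26 (adjusted p = 0.0186). Among monocyte and early macrophage genes, the cesarean response was larger for Spp1 by 1.78 (limma adjusted p = 0.0110), Fpr1 by 1.69 (adjusted p = 0.0113), F10 by 1.32 (adjusted p = 0.0120) and Mgst1 by 1.20 (adjusted p = 0.0119). It was also larger for Trem1 by 2.36 (limma adjusted p = 0.0122), Clec4e by 1.55 (adjusted p = 0.0177), Clec4d by 1.52 (adjusted p = 0.0197) and Fpr2 by 1.36 (adjusted p = 0.0177). For Plac8 it was -1.62 (limma adjusted p = 0.0146). Among resident macrophage genes the values were 1.47 for F13a1 (limma adjusted p = 0.00963), 0.94 for Siglec1 (adjusted p = 0.0361), 0.85 for Cd209g (adjusted p = 0.0360) and 0.77 for Gas6 (adjusted p = 0.0309). The transcription factor gene Cebpb had 1.30 (limma adjusted p = 0.0164). Spp1, Fpr1, F10, Trem1, Clec4e, Clec4d, Fpr2, Siglec1 and Cd209g averaged at most 0.444 FPKM in either water group. These entered the test only through DSS libraries, so their values largely restate the difference between the DSS groups.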

How the results depend on the processing

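Counts of members called as higher in DSS_CS than in CON_CS were 10 of 10 or all members tested in every alternative run, and 7 to 10 in DSS_VD against CON_VD. Between the DSS groups the count of 1 (Itgam) became 0 without the filter, with the replicate block and without both libraries that held prostate genes, and it was 0 to 1 when single libraries were left out. The Itgam adjusted p was 0.108 without the filter and 0.0573 with the block. In water the count was 0 to 1, and in the interaction 1 to 2, when single libraries were left out. The Itgam interaction was 1.16 over all libraries (limma adjusted p = 0.0663) and was not called. It was the added call without DSS_VD replicate 3 (1.37, limma adjusted p = 0.0311) or 4 (1.32, adjusted p = 0.0458). It also passed with array weights (0.99, limma adjusted p = 0.0477). The Cx3cr1 rise in DSS_VD was not called without the filter (limma adjusted p = 0.101).

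Uncalled differences that changed sign, with their range when single libraries were left out, were Cx3cr1 between the DSS groups (-0.54 to 0.15) and in the interaction (-0.60 to 0.083), each above 0 without DSS_VD replicate 1, and several in water. There the ranges were -0.067 to 0.15 for Adgre1, -0.011 to 0.15 for Cx3cr1, -0.23 to 0.16 for Cd68, -0.14 to 0.094 for Csf1r and -0.65 to 0.025 for Lyz2. Cd68 was 0.0047 with TPM scaling and 0.051 with array weights, and Csf1r was 0.039 and 0.085.

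The recruited minus resident change was 0.10 between the DSS groups (-0.0057 to 0.31 without single libraries), and 0.52, 0.77, -0.57 and -0.32 for Ly6c2 minus Cx3cr1, Ccr2 minus Cx3cr1, Ly6c2 minus Mrc1 and Ccr2 minus Mrc1. In water it was -0.48 (-0.57 to -0.36), and -1.08, 0.14, -1.11 and 0.11 for those pairs. In DSS_VD against CON_VD it was -0.17 (-0.38 to -0.04), with 1.16 for Ccr2 minus Cx3cr1 and -1.50 for Ly6c2 minus Mrc1. In DSS_CS against CON_CS it was 0.42 (0.33 to 0.53), with 0.87 at a pseudocount of 0.1, and 1.38, 1.79, -0.96 and -0.55 for the 4 pairs. The cause of these changes was not tested.

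Over all genes, calls between the DSS groups went from 1923 (1130 higher and 793 lower) to 3 without the filter, 2 with the replicate block and 3871 in a single fit of all groups, and were 0 to 2054 without single libraries. In water they went from 54 to 3 without the filter, 1405 with array weights and 7 with the block, and were 0 to 275 without single libraries. Interaction calls went from 2015 to 1042 without the filter. Median-of-ratios scaling changed the split to 791 higher and 885 lower between the DSS groups, and from 4937 and 3729 to 4131 and 4692 in DSS_CS against CON_CS, where the median of all genes moved from 0.06 to -0.06. The replicate numbers showed no clear pairing of the libraries: same-numbered libraries deviated together at r of -0.28 to 0.13, with at most 1 of 4 correlating best with its own number. In DSS_VD against CON_VD these r were 0.024 to 0.13. With 4 pairs per comparison this check cannot exclude a shared litter or day, which the labels do not give. Without counts, depth cannot be weighed, and values under 1 FPKM, such as Ccr2 in water, are the least certain.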
